A study of Mus musculus with 5 samples.

Results

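The genes described here are the matrix metalloproteinases (MMPs), the ADAMs (membrane proteins with a disintegrin and a metalloproteinase domain), the ADAMTS enzymes (secreted relatives with thrombospondin repeats) and the tissue inhibitors of metalloproteinases (TIMPs). They were taken from the authors' deposited table by symbol, as every row whose name begins with Mmp, Timp, Adam or Adamts followed directly by a digit. This gave 70 of 25549 rows, made up of 20 Mmp, 27 Adam, 19 Adamts and 4 Timp genes. No symbol was repeated, and all 70 matched a gene of the GENCODE M21 annotation (GRCm38) by symbol and chromosome, 69 of them protein-coding and 1, Mmp1a, a polymorphic pseudogene. The annotation names 79 genes of this form. The other 9 (Mmp3, Mmp7, Mmp10, Adam6a, Adam18, Adam26a, Adam29, Adam34 and Adam39) had no row under these symbols in the authors' deposited table. They could not be analysed here, and no source used here says why they lack a row.

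The cells were mast cells grown out of the bone marrow of C57BL/6 mice, cultured for 6 to 8 weeks with 50 ng/mL recombinant interleukin-3 and given no treatment. The mice were Cpa3-Cre;miR-9∆fl/∆fl (3 samples, called the miR-9 line below) or Cpa3-Cre (2 samples), so both genotypes carried Cre driven by the promoter of Cpa3, a mast cell carboxypeptidase gene, and ages and sexes were matched per the labels. The labels do not say whether recombination of the ∆fl allele raises or removes the microRNA miR-9, nor whether replicate samples were separate animals or cultures, so the p-values may measure technical spread. Strand-marked total RNA libraries were sequenced at a stated depth of about 70000000 paired 50-base reads per sample. The title of the series concerns an invasive mast cell phenotype; which of these genes differ between the genotypes is the comparison described.

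MMPs and ADAMTS enzymes cut collagens, proteoglycans and other components of the extracellular matrix, while catalytically active ADAMs release the outer parts of membrane proteins such as cytokines and receptors. The active enzymes use zinc and are made as inactive precursors, and TIMPs block the active site. Mast cells are known to release MMP-9, and their granule chymases can activate MMP precursors, but several members of these families are known chiefly from other tissues, such as the sperm ADAMs and the tooth enzyme MMP-20.

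Which members mast cells expressed could be read only in part. The values per library in the table carry names that match no sample label and were not used, so no level per sample, no standard error and no threshold of detection could be given, and a row in the table does not by itself show expression. What the authors' deposited table gives is a log2 fold change for every row and a p-value for most: 57 of the 70 members had a p-value and 13 did not. That is 18.6% of members without a p-value, against 5.78% of all 25549 rows (1478 rows). The missing p-values were unevenly spread, with 9 of 20 MMPs, 1 of 4 TIMPs, 2 of 27 ADAMs and 1 of 19 ADAMTSs. No source used here says why a row lacks a p-value, so a missing value was not read as absence of the transcript.

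The members without a p-value included enzymes known from granulocytes and macrophages. They were Mmp8 (neutrophil collagenase), Mmp9 (gelatinase B), Mmp25 (a membrane-anchored MMP of leukocytes), Mmp12 (macrophage elastase), Mmp13 (collagenase 3), Mmp14 (membrane-type 1 MMP), Mmp19, Mmp28, Mmp1b, Timp2, Adam8 (a leukocyte ADAM), Adam7 (an epididymal ADAM) and Adamts1. Among marker lists, 9 of 9 neutrophil markers, 7 of 8 monocyte and macrophage markers, 2 of 3 basophil markers, 2 of 10 stromal markers and 0 of 12 mast cell markers lacked a p-value per the authors' deposited table. All mast cell markers thus had a p-value and no neutrophil marker did, but their levels were not read. The split did not follow cell type throughout. The sperm genes Adam3 and Adam5 and the tooth enzyme gene Mmp20 had a p-value, while Ctsb, Ctsl and Tnfrsf1a had none. A p-value was therefore not read as expression in mast cells. The part that other cells had in the 13 members was not tested. Log2 fold changes of these 13 ranged over -1.27 (Adam7) to 0.33 (Adam8) per the authors' deposited table, and their median was -0.17. Those of Mmp8 and Mmp9 were close to 0, at -0.0035 and -0.0079 per the authors' deposited table. Mmp14 and Timp2, whose proteins act together in activating the MMP-2 precursor, stood at -0.04 and -0.07 per the authors' deposited table. No test stands behind any of these values.

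**Figure D1:**
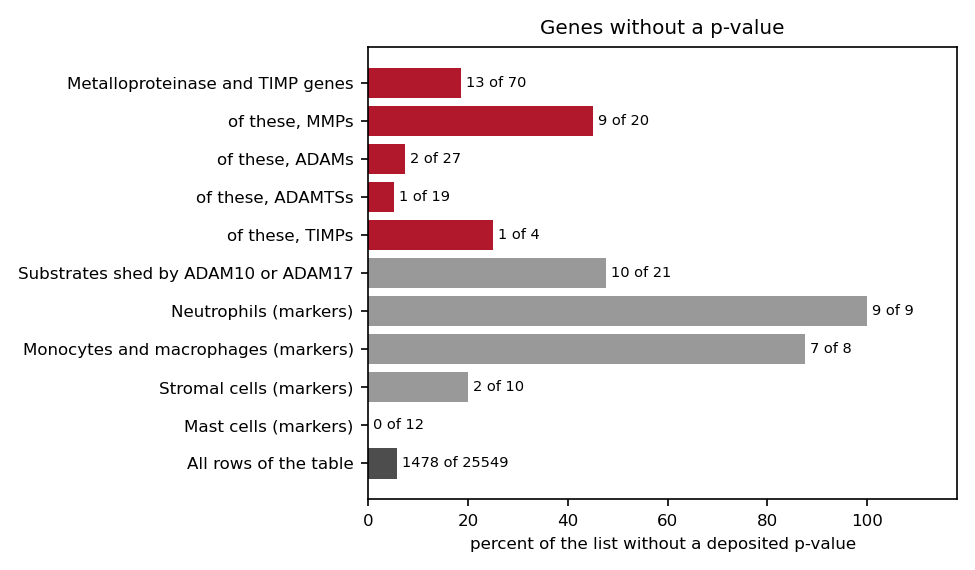
Percent of each gene list without a p-value per the authors' deposited table (horizontal axis), with the count beside each bar; red bars are the metalloproteinase and TIMP genes and their 4 families, grey bars the other lists, and the dark bar all rows. The MMPs (9 of 20) stand between the neutrophil markers (9 of 9) and the mast cell markers (0 of 12). The bars do not measure expression.

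No metalloproteinase or TIMP gene passed the test between the miR-9 line and Cpa3-Cre controls. The p-values of the authors' deposited table were adjusted by the Benjamini-Hochberg method over all 24071 genes that had one. Of the 57 members, 0 had an adjusted p under 0.05, where 0.411% of all genes did (99 genes). At an unadjusted p under 0.05 there were 5 members, or 8.77% of 57, beside 7.92% of all genes, which is near the background. By direction, 5 of 57 were lower and 0 higher, where 4.05% of all genes were lower and 3.87% higher at that level. At the study's own threshold, an unadjusted p under 0.0001, there were 0 members, where 0.299% of all genes passed. An unadjusted p under 0.05 together with an absolute log2 fold change of at least 1 left 2 members (3.51%), where 4.04% of all genes passed. The smallest adjusted p of any member was 0.117.

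The direction of the values was lopsided, although single genes did not pass. Of the 57 members with a p-value, 48 (84.2%) had negative values per the authors' deposited table, where 59.8% of all genes with a p-value and 59.9% of protein-coding ones did. Their median was -0.40, beside -0.09 for all genes, and the quartiles were -0.74 and -0.19, beside -0.38 and 0.15. Measured from the median of all genes in place of 0, 46 of 57 were lower, and Mmp17 and Adamts13 changed side. With the members lacking a p-value included, 60 of 70 were negative (85.7%), where 60.7% of all rows were; of all rows without a p-value, 75.4% were negative. Stromal markers leaned the same way, with 7 of 8 tested genes negative and a median of -0.36, while 3 of 12 mast cell markers were negative with a median of 0.10. In bulk RNA, fewer cells of a type and less RNA per cell cannot be told apart. The part of any of these cell types in the lean of the members was not tested.

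**Figure D2:**
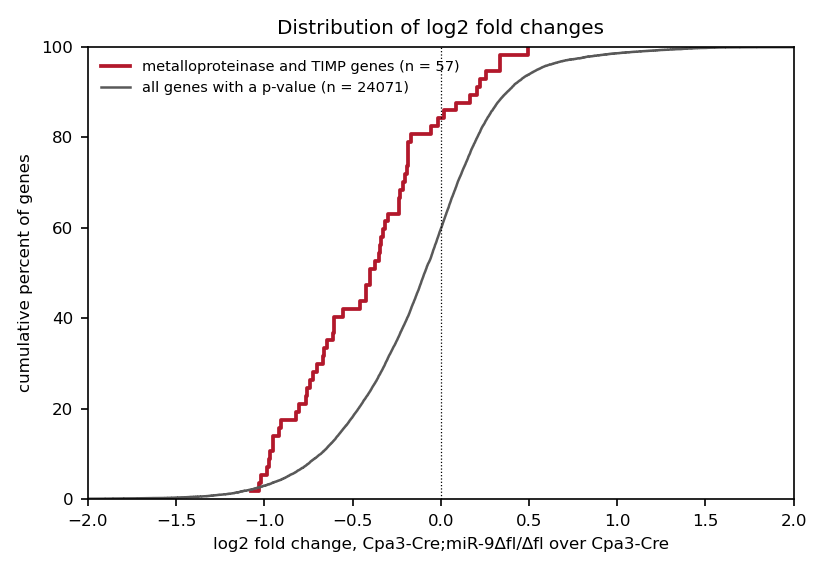
Cumulative percent of genes (vertical axis) at or below each log2 fold change, miR-9 line over Cpa3-Cre (horizontal axis), for the 57 metalloproteinase and TIMP genes with a p-value (red) and all 24071 such genes (grey). The red curve lies to the left over most of the range, with medians of -0.40 and -0.09, and it has crossed 84.2% where the grey one has crossed 59.8% at 0.

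Among the proteases of the matrix, the MMPs, 10 of the 11 with a p-value were negative, with a median of -0.34, and 0 had an unadjusted p under 0.05. The collagenase gene Mmp1a, the mouse counterpart of interstitial collagenase, had the lowest value of these at -0.76 per the authors' deposited table (p = 0.138, adjusted p = 0.772). Mmp2, which encodes gelatinase A, stood at -0.61 per the authors' deposited table (p = 0.248, adjusted p = 0.846). The other gelatinase gene, Mmp9, had no p-value. Mmp11, for stromelysin 3, stood at -0.37 per the authors' deposited table (p = 0.444). Membrane-type MMPs gave smaller values, with Mmp16 at -0.34 (p = 0.319), Mmp15 at -0.21 (p = 0.659), Mmp24 at -0.20 (p = 0.662) and Mmp17 at -0.02 (p = 0.978) per the authors' deposited table. Mmp17 and the untested Mmp25 are the members held at the membrane by a lipid anchor. Of the remaining MMPs, Mmp21 (-0.61), Mmp23 (-0.46) and Mmp20 (-0.30) were negative, and Mmp27, at 0.25 (p = 0.296), was the single MMP with a positive value per the authors' deposited table.

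Several MMP genes lie side by side on mouse chromosome 9. The cluster in the table held 7 rows over 402.5 kb of GRCm38 (Mmp13, Mmp12, Mmp1b, Mmp1a, Mmp8, Mmp27 and Mmp20), and 3 of them had a p-value. Log2 fold changes of the 7 rows spanned -0.76 to 0.25 per the authors' deposited table, and differences between neighbours were not tested. Mmp1b and Mmp12 lie on opposite strands and share 157 exon bases, and whether counting used strand is unknown here, so their reads cannot be told apart there. Several promoters of this cluster are textbook examples of control by AP-1, the FOS-JUN transcription factor. The AP-1 core is TGACTCA or TGAGTCA. The motif searched was the wider TGANTCA, with any base at N, which reads the same on both strands. It was found in the RefSeq promoter window (GRCm38.p6, 250 bases before to 50 after the start site) of 5 of the 7 genes. In Mmp20 the match was TGAATCA, which is not the AP-1 core. Over all windows the motif was found in 7.81% (2565 of 32851), and over those of the 43 members with a window in 19.1% (9 of 47). Among the 9, the windows of Adam20 and Adam25 are near copies, and those of Mmp1a and Mmp1b share long stretches. The 9 are therefore not separate observations. Outside the cluster the motif was present in Adam19, Adam1b, Adam20 and Adam25, in Adam20 and Adam25 again as TGAATCA. The shares therefore count the wider motif and not the AP-1 core alone. The windows of Mmp13 and Mmp1a, with the match 35 and 73 bases before the start, and of Adam19, the motif holder with the smallest p-value, are printed with the match in capitals.
Mmp13, chr9:7272264-7272563, plus strand: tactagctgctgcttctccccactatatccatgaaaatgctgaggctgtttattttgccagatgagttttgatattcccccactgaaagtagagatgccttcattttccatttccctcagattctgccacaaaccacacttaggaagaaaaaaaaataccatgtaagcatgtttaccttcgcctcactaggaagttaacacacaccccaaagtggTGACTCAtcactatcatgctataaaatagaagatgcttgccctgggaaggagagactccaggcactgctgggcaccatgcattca
Mmp1a, chr9:7463891-7464190, plus strand: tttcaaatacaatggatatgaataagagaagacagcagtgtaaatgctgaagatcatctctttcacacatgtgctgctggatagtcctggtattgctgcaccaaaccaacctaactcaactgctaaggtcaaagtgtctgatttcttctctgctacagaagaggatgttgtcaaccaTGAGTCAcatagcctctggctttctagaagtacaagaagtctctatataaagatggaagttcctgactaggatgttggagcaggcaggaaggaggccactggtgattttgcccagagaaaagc
Adam19, chr11:46055734-46056033, plus strand: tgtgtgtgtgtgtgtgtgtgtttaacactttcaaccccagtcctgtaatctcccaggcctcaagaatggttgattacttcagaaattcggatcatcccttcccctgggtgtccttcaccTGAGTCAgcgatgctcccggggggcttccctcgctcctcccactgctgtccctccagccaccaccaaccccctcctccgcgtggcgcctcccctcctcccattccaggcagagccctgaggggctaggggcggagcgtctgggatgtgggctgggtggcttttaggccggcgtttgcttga
The letters describe these windows and do not show binding. Values of the motif holders per the authors' deposited table lay between -0.98 (Adam19) and -0.04 (Mmp1b), all negative, as were 85.7% of the 70 members.

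Values of the inhibitors were spread widely. Timp3, whose protein binds to the matrix and inhibits ADAM17 and several ADAMTS enzymes besides MMPs, stood at -1.02 per the authors' deposited table (2.03-fold lower, p = 0.0247), and its adjusted p was 0.498. Timp1, for a secreted inhibitor, was at -0.23 per the authors' deposited table (p = 0.668, adjusted p = 0.958). Timp4 had the highest value of all members, 0.50 per the authors' deposited table (p = 0.330, adjusted p = 0.879). Values of the inhibitors thus covered nearly the whole range of the members, and a difference between them was not tested. Of the 4 TIMP genes, 3 lie within a synapsin gene and on the opposite strand, an arrangement that allows a look at the host. Syn3, which holds Timp3, stood at -0.25 (p = 0.591), Syn1, which holds Timp1, at -0.19 (p = 0.635), and Syn2, which holds Timp4, at 0.66 (p = 0.189) per the authors' deposited table. Each host had the sign of its TIMP. Timp3 (chromosome 10, 86300372 to 86349506, GRCm38) shared 1733 exon bases with Syn3, or 21.3% of its exon length, while Timp1 and Timp4 shared 0 exon bases with their hosts. The value of Timp3 is therefore uncertain wherever reads were not split by strand.

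Values of the 8 sheddases (ADAMs with a working protease) that had a p-value ranged from -1.07 to 0.34 per the authors' deposited table. The widely expressed Adam10 and Adam17, which encode the main sheddases of Notch receptors and of TNF, stood at 0.17 (p = 0.404) and 0.21 (p = 0.371) per the authors' deposited table. Adam15 (0.34, p = 0.344) and Adam9 (0.02, p = 0.963), also broadly expressed, completed the 4 positive values among the 8 with p-values per the authors' deposited table. On the other side, Adam33, linked to asthma in humans, stood at -1.07 per the authors' deposited table (2.11-fold lower, p = 0.0389, adjusted p = 0.582). Adam19, which encodes meltrin beta, was at -0.98 per the authors' deposited table (1.97-fold lower, p = 0.0469, adjusted p = 0.619). Its relative Adam12, for meltrin alpha, was at -0.80 (p = 0.0908), and Adam28, known from lymphocytes, at -0.18 (p = 0.577) per the authors' deposited table. No test compared the positive with the negative members. Adam15 shares 1263 exon bases (20.6% of its exon length) with 4731419I09Rik on the opposite strand, and that row stood at 0.37 per the authors' deposited table.

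The ADAMs without catalytic activity that act as neuronal adhesion receptors were all negative. Adam22, a receptor for the secreted protein LGI1 in brain, had the smallest p-value of all members, at -0.97 per the authors' deposited table (1.96-fold lower, p = 0.00131, adjusted p = 0.117). The gene lies on the minus strand of chromosome 5 from 8072352 to 8368160 (GRCm38), with 36 exons in the table, and shared 0 exon bases with the single row that overlaps its span. Adam23, another LGI1 receptor, stood at -0.99 (p = 0.0611) and Adam11 at -0.70 (p = 0.186) per the authors' deposited table. These 3 thus had values of like size, and none passed.

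Among the reproductive and other ADAMs, 13 of the 14 with a p-value were negative, with a median of -0.49. The sperm genes Adam5 and Adam3 stood at -1.03 (p = 0.0505) and -0.95 (p = 0.0682) per the authors' deposited table, and Adam2, for fertilin beta, at -0.56 (p = 0.159). Adam6b, which lies in the immunoglobulin heavy chain region, was at -0.82 per the authors' deposited table (p = 0.0607, adjusted p = 0.664). Adam21 and Adam30, further testis genes, stood at -0.72 (p = 0.171) and -0.66 (p = 0.217) per the authors' deposited table. Adam4 alone was positive, at 0.09 per the authors' deposited table. Adam3, Adam5 and Adam32 sit beside the broadly expressed Adam9 within 339.7 kb of chromosome 8. The sperm genes there were at -0.95, -1.03 and -0.61, against 0.02 for Adam9, per the authors' deposited table. Close copies such as Adam1a and Adam1b, Adam24 and Adam25, and Adam6b and Adam26b with Adam6a and Adam26a are uncertain where reads were shared, and 771 exon bases of Adam1a also belong to Mapkapk5.

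The ADAMTS genes had 16 negative values of 18 with a p-value and a median of -0.34. Adamts10, a microfibril-associated member, stood at -0.40 per the authors' deposited table (1.32-fold lower, p = 0.0230), with an adjusted p of 0.484. The procollagen-processing genes Adamts3 (-0.35), Adamts2 (-0.19) and Adamts14 (-0.19) lay closer to 0 per the authors' deposited table, each with p of 0.495 or more. Of those that cut aggrecan or versican, Adamts5 stood at -0.67 (p = 0.149), Adamts4 at -0.19 (p = 0.683), Adamts9 at 0.22 (p = 0.653) and Adamts20 at 0.33 (p = 0.527) per the authors' deposited table. Adamts15 (-0.34, p = 0.489) and Adamts8 (-0.23, p = 0.657), of the same role, were negative without passing the test per the authors' deposited table. Adamts1, beside Adamts5 on chromosome 16, was at -0.71 per the authors' deposited table without a p-value. The 9 members outside both roles, Adamts10 included, were all negative with a median of -0.74; they ranged over -0.95 (Adamts19) to -0.05 (Adamts13, whose enzyme cuts von Willebrand factor) per the authors' deposited table. Within that range, Adamts16 (-0.92), Adamts18 (-0.90) and Adamts17 (-0.76) had p-values of 0.0808, 0.0746 and 0.132 per the authors' deposited table. The pair that cuts the cartilage protein COMP, Adamts12 (-0.74) and Adamts7 (-0.65), had p-values of 0.160 and 0.158 per the authors' deposited table. Adamts9 shares 1381 and 424 exon bases with A730049H05Rik and Gm15737 on the opposite strand, so its sign is uncertain. In all, 12 members share exon bases with another row, 11 of them with one on the opposite strand; among those already named, Mmp24 shares 637 bases with BC029722, Mmp19 789 with Tmem198b, Mmp28 465 with 1700020L24Rik, Adamts7 122 with Tbc1d2b, Adam17 97 with Iah1 and Adam8 46 with Gm16201.

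**Figure D3:**
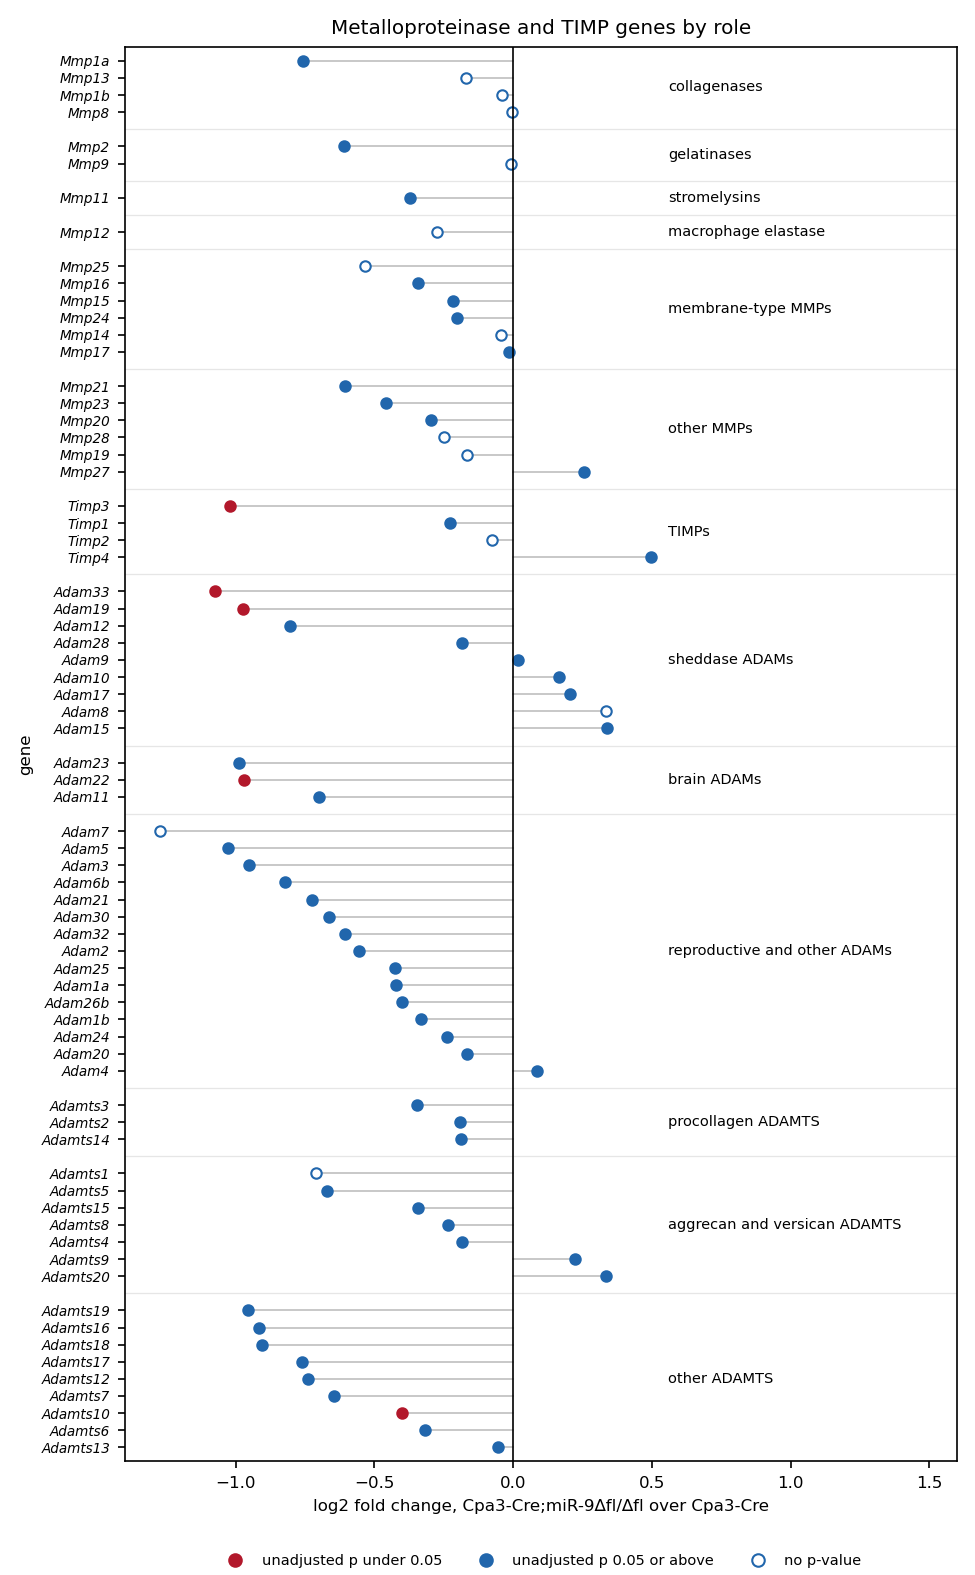
Log2 fold change, miR-9 line over Cpa3-Cre (horizontal axis), for all 70 members, grouped by role; filled red points have an unadjusted p under 0.05, filled blue points a larger one and open points none. All 5 red points (Adam22, Adamts10, Timp3, Adam33 and Adam19) lie left of 0, and 10 of the 70 points lie right of it, 5 of them sheddase ADAMs.

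Members with the same size of change differed widely in p-value. No standard error was available, so the error behind each value was not measured. Adamts10, at -0.40, had p = 0.0230, while Adam26b, also at -0.40 per the authors' deposited table, had p = 0.340. Likewise Adam22 (-0.97, p = 0.00131) and Adam23 (-0.99, p = 0.0611) had nearly equal values per the authors' deposited table. To place the others, each p-value was set against those of all genes with a log2 fold change of the same sign within 0.05. For Adam10, 13.2% of such genes had a smaller p, and for Adam17 21.5%, so most genes of like change had larger p-values. For Mmp2 the share was 81.4%, for Timp1 85.8% and for Timp4 84.0%, so most genes of like change had smaller p-values. The median over the 57 members was 55.3%. Whether a small p at a given change comes from many reads or from closely agreeing samples cannot be told apart here. The largest p of any called gene was 0.000205, so no member was near that mark.

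**Figure D4:**
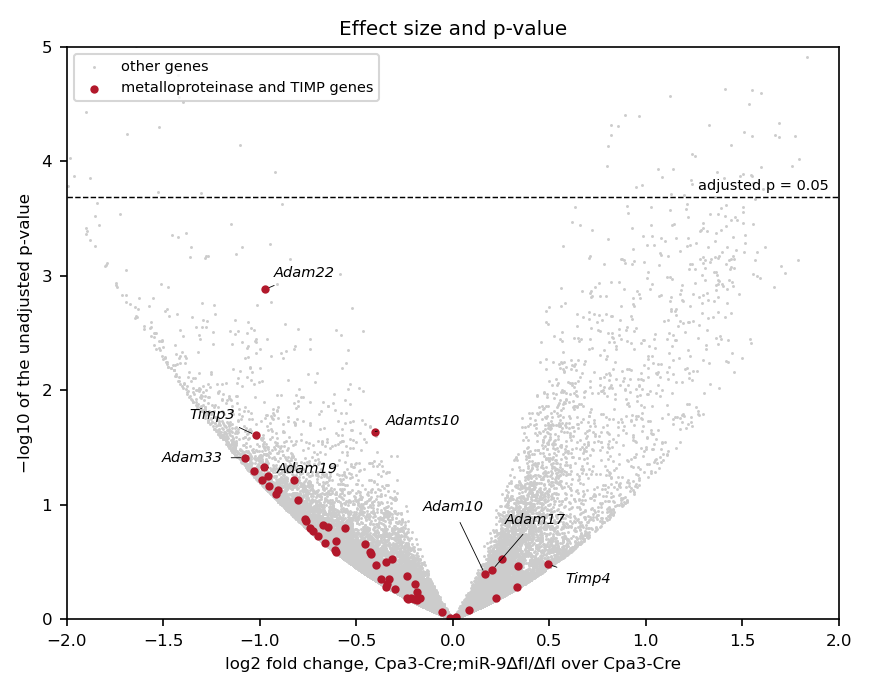
Minus log10 of the unadjusted p-value (vertical axis) against log2 fold change, miR-9 line over Cpa3-Cre (horizontal axis), for the 57 members (red) and all other genes (grey), all from the authors' deposited table; the dashed line marks an adjusted p of 0.05, and 41 other genes lie outside the axes. All members lie below the line, with Adam22 nearest to it, and most sit left of 0.

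MicroRNAs pair through their seed, bases 2 to 8, with sites in the 3′ untranslated regions of messenger RNAs. The mature arms of miR-9, the microRNA altered in the line, are the same at all 3 mouse loci (Mir9-1, Mir9-2 and Mir9-3) in RefSeq (GRCm38.p6), and are printed with the seed in capitals.
miR-9-5p: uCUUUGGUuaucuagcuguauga
miR-9-3p: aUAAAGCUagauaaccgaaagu
Per the authors' deposited table the gene model over the Mir9-1 hairpin, Gm25641, stood at 4.50 (22.6-fold higher, p = 3.63e-22, adjusted p = 8.74e-18); it lies on the strand opposite to the hairpin, and these libraries do not measure the mature microRNA. The longest GENCODE M21 3′ untranslated region of each member was searched for the 7 bases that pair with each seed, on the sense strand.

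For miR-9-5p, the match ACCAAAG was present in 9 of 70 members (12.9%) and in 13.2% of all 16544 genes with such a region (2192 genes). The holders were Adam11, Adamts5, Adamts6 with 2 matches, Adamts9, Adamts14, Adamts18, Mmp13, Mmp15 and Mmp16. Of the 8 with a p-value 7 were negative, with a median of -0.33; of the 49 without a match 41 were negative, with a median of -0.40. Over all genes with a p-value the medians were -0.11 with and -0.09 without a match. The difference between members with and without a site was not tested. Some holders are printed, with the match in capitals. Adamts6 (at the first of its 2 matches), Adamts14 and Adamts9 have an A after it, the strongest form of a seed site. Both matches of Adamts6 lie beyond the end of its row in the authors' deposited table, at 104494763. Adamts18 is the holder with the lowest value.
Adamts6, chr13:104494905-104494927, plus strand: tagggaaggataacaACCAAAGa
Adamts14, chr10:61198034-61198056, minus strand: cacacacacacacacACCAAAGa
Adamts9, chr6:92772837-92772859, minus strand: accaagctttccaagACCAAAGa
Adamts18, chr8:113697736-113697758, minus strand: tgcttttttgccaaaACCAAAGt
Their values per the authors' deposited table were -0.32 for Adamts6 (p = 0.296), -0.19 for Adamts14 (p = 0.664), 0.22 for Adamts9 (p = 0.653) and -0.90 for Adamts18 (p = 0.0746).

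For miR-9-3p the match AGCTTTA was present in 5 of 70 members (7.14%) and in 11.9% of all genes (1970 genes). The holders were Adam22 with 2 matches, Adam9, Adamts5, Adamts12 and Timp2. Of the 4 with a p-value 3 were negative, with a median of -0.71, and the median of the 53 members without a match was -0.37. Over all genes with a p-value the medians were -0.09 with and -0.09 without a match. Per the authors' deposited table, Adamts12 stood at -0.74 and Adamts5 at -0.67. The match of Adamts12, from 11347180, lies beyond the end of its row there, at 11346867. The difference was not tested. Adam22, the member with the smallest p-value, has a long 3′ untranslated region of 6334 bases, where the median member has 1317. Its matches and that of Adam9, whose value was 0.02, are printed for comparison.
Adam22, chr5:8076224-8076246, minus strand: ttttagaaatataatAGCTTTAa
Adam22, chr5:8074570-8074592, minus strand: cattcttattccacgAGCTTTAt
Adam9, chr8:24950773-24950795, minus strand: aaccaccacaaaacaAGCTTTAt
A match is a description of the sequence, and none of these letters shows that miR-9 acts on the transcript. All coordinates of sites are in GRCm38.

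Genes that work with these enzymes showed no called member either. Among 18 tested partners and regulators 0 were called, where 0.411% of all genes were. At that share a list of 18 would seldom hold a called gene, so the count of 0 says little. Of the 18, 12 were negative, with a median of -0.20, and 4 had an unadjusted p under 0.05, all lower, where 4.05% of all genes were lower at that level. Rhbdf1, for iRhom1, which helps ADAM17 to mature, stood at -1.23 per the authors' deposited table (p = 0.00215, adjusted p = 0.155). The others were Pcsk5, for a convertase of protein precursors, at -1.20 (p = 0.0258), A2m, for a broad protease trap, at -0.98 (p = 0.0360), and Papln, an ADAMTS-like matrix gene, at -0.92 (p = 0.0303) per the authors' deposited table; they are named for their p-values. The iRhom1 relative Rhbdf2, for iRhom2, the form prominent in immune cells, was at 0.16 per the authors' deposited table (p = 0.695). Furin, which cuts the precursors of many ADAMs and membrane-type MMPs, was at -0.02 (p = 0.947), and Bsg, an inducer of MMPs, at 0.20 (p = 0.318) per the authors' deposited table. Reck, a membrane-bound MMP inhibitor, was at -0.34 per the authors' deposited table without a p-value.

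In the plasminogen system, which activates MMP precursors outside the cell, 0 of 7 tested genes were called, beside the same 0.411% of all genes, and 5 were negative. Plau, the urokinase gene, stood at -0.30 (p = 0.264) per the authors' deposited table, and its receptor gene Plaur at -0.43 without a p-value. Of 21 substrates shed by ADAM10 or ADAM17, 10 had no p-value, 0 were called (0.411% of all genes were), and 8 of the 11 tested were negative. The chemokine gene Cxcl16 (-1.003, p = 0.00847) and Kitl, for the ligand of KIT (-1.07, p = 0.0339), had an unadjusted p under 0.05 per the authors' deposited table. Of 11 other matrix-degrading enzymes, 5 had no p-value. The 6 tested gave 0 called genes, beside 0.411% of all genes, with 3 positive. Over all 11, 3 were positive and 8 negative. Cma1, the mast cell chymase named in the series title, had the highest value of that list, 0.97 per the authors' deposited table (p = 0.0176, adjusted p = 0.442). No MMP, ADAM, ADAMTS or TIMP gene stood as high, the nearest being Timp4 at 0.50 per the authors' deposited table.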

How the data were processed

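RNA sequencing of 5 samples was deposited as a single table of 25549 rows. The submitters' processing notes name DESeq2, DESeq, Cuffdiff, HTSeq and STAR, and the builds mm10 and GRCm38, with no version or role. Per the file headers, the authors deposited a log2 fold change (miR-9 line over Cpa3-Cre), a signed linear fold change made from it, a p-value per gene and a summed exon length. No source used here states the filters, strand use, model or any shrinkage of folds, which would make folds of scarce genes too small. A further 5 columns of values per library, with names that match no label, were not used, so no test per sample, depth or leave-one-out fit was made, and the design fixed for this case was followed.

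Benjamini-Hochberg adjustment (statsmodels 0.14.6, Python 3.11.15) covered all 24071 deposited p-values, with calls at an adjusted p under 0.05; it was tested on simulated data. Exon overlaps came from the table's coordinates. GENCODE M21 gave gene classes and 3′ untranslated regions, and RefSeq tables gave miRNA and promoter sequences; both ends of 60 of 70 members lay within 1000 bases of those in M21. Members were named if called, if their unadjusted p was under 0.05, if among the 25 smallest p-values, if highest or lowest of a role, or from a set of well-known members; other members are named as examples. Members, roles and lists were chosen with earlier results of these data known. Alternatives were other adjustments and thresholds, protein-coding rows, wider membership and centring.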

Additional observations from a re-analysis of the deposited data

How the results depend on the processing

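No member was called higher or lower at an adjusted p under 0.10 or with the ADAMTS-like genes added (5 rows). The count was also 0 with the Benjamini-Yekutieli adjustment and at the study's own threshold, an unadjusted p under 0.0001; both are stricter than a setting that already gave 0 and could not change it. No member's symbol was repeated, so leaving out repeated symbols was the same analysis. With protein-coding genes alone none passed either, and the smallest adjusted p of a member, that of Adam22, was 0.0860 in place of 0.117. At an unadjusted p under 0.05, 5 members were lower and 0 higher, and 2 of these (Timp3 and Adam33) also had an absolute log2 fold change of at least 1. Minus the median of all tested genes, -0.09, the log2 fold changes of Adamts13 and Mmp17 turned positive, to 0.0377 and 0.0772. Chosen after the data were seen, other counts of negative members were 60 of 70 with members lacking a p-value, 46 of 57 below that median, and 44 of 50 without members that share exon bases with another row. No paired analysis was possible because the report rests on the authors' deposited comparison and uses no values per library; for the same reason tests with counts per library, leaving out replicates, and count minimums were not run. The depth behind each gene was not analysed here, so a difference that missed the threshold is not shown to be absent.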
